A study of Homo sapiens with 9 samples.

Results

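The genes described here are 53 ribosome biogenesis and nucleolar factors, chosen by name from a list with earlier results of these data known, out of 59050 gene symbols in the count table of MEC1 cells. All 53 were found in the table, and all 53 were among the 13463 genes kept for testing, which had a CPM (counts scaled to a library of 1e+06) above 1 in at least 3 of the 9 samples. MEC1 is an established cell line of chronic lymphocytic leukemia (CLL), a cancer of B lymphocytes. RNA was measured in 3 samples of 2D culture (2D), whose labels give no time in culture, in 3 samples bioprinted in a hydrogel and collected at day 7 (3D_7d) and in 3 collected at day 14 (3D_14d). All 9 samples are of this 1 line, and no genotype or drug distinguished them. Their titles all begin with MECPGK, and the study's methods do not say what PGK stands for. Scaffold RNA was isolated with TRIzol, treated with DNase I and purified again on a column, whereas RNA of the 2D cells went over the column alone. Extraction and culture therefore cannot be told apart in 3D_7d vs 2D and 3D_14d vs 2D, while 3D_14d vs 3D_7d compared samples with the same extraction. The labels number the replicates but do not say that they were separate cultures, so that p-values measure the spread between these samples, which may be technical.

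The libraries held 54662799 to 85968686 counts each. All 6 B cell markers checked were expressed, with a summed level of 2518 to 3794 CPM, and none of 6 T cell and none of 4 myeloid markers passed the filter, with sums of at most 1.66 and 0.934 CPM. Of 4 NK cell markers 3 passed, with nearly all of the sum in PRF1, at 748 to 1264 CPM, and NCR1 at 0.0519 CPM at most. COL1A1 was the fibroblast marker that passed and CDH1 the epithelial one, out of 4 each, with sums of 1.58 to 7.58 and 0.432 to 2.24 CPM. The make-up of the libraries also moved with the groups. Ribosomal protein genes took 4.10 to 4.82% of the counts in 2D, 1.66 to 1.82% at day 7 and 1.88 to 3.27% at day 14, and mitochondrial genes took 2.30 to 2.83%, 1.44 to 1.64% and 1.62 to 2.82%. Scaling without these genes and without immunoglobulin genes is among the settings given below. Their part in the results was not tested otherwise. Replicate 1 of 3D_14d stood apart from the other samples of its group, and the counts of members are given with and without it.

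Ribosomes are built in the nucleolus. RNA polymerase I copies the ribosomal DNA into a long precursor, which small nucleolar RNPs (snoRNPs) modify while the small subunit (SSU) processome folds and cuts it. The parts then separate into a pre-40S particle, which is finished in the cytoplasm, and a pre-60S particle, which passes through many assembly factors. Nucleolar proteins such as nucleolin and nucleophosmin organise the compartment. In B cells and their leukemias this machinery is known to grow with activation and with MYC, a transcription factor that binds the E-box CACGTG.

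The promoters of these genes are shown first, since many share that motif close to the start of transcription. RefSeq windows of 300 bases on GRCh38.p14, from 250 bases before to 50 after the start, were matched by symbol for 45 of the 53 factors, and the other 8 (RRS1, BOP1, NOLC1, DDX18, TCOF1, RRP1B, NOP58 and RRP12) had no window. An exact CACGTG, which reads the same on both strands, was present in 23 of the 45 windows (51.1%). The share was 22.3% among 103 windows of other ribosome biogenesis factors, 13% among those of all tested genes (1223 of 9441) and 8.77% among all 27305 windows. The ETS motif CCGGAAG, searched on both strands, was present in 18 of the 45 windows of members, 44.7% of those of the other factors, 23.7% of those of tested genes and 12.2% of all. For the CCAAT box CCAAT the shares were 42.2%, 38.8%, 43.5% and 39.7%. None of these motifs can overlap another. These shares are a description of the windows, without a test. The following stretches of 30 bases around an E-box, 5′ to 3′ on the strand of the gene, belong to those members described in full below that have one, and capitals mark the E-box. A second E-box of EBNA1BP2, at position 43 of the transcribed bases, lies too close to the end of its window for such a stretch.
NOP14, chr4:2963374-2963403 (−): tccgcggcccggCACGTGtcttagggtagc
PNO1, chr2:68157885-68157914 (+): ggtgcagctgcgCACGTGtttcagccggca
GNL3, chr3:52686026-52686055 (+): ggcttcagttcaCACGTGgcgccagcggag
RRP9, chr3:51941892-51941921 (−): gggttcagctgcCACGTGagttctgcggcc
FBL, chr19:39846356-39846385 (−): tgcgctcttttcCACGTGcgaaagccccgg
NOP10, chr15:34343130-34343159 (−): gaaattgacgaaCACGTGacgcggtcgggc
NOP10, chr15:34343289-34343318 (−): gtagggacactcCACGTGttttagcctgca
IMP4, chr2:130342900-130342929 (+): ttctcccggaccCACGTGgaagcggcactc
IMP4, chr2:130342682-130342711 (+): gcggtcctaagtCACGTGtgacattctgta
EBNA1BP2, chr1:43172790-43172819 (−): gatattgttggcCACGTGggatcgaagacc

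Counted from 1 at the first transcribed base, the E-box began at position 16 in NOP14, 10 in PNO1, 7 in GNL3 and 7 in FBL, and at position -5 in RRP9. Of 26 E-boxes in the 23 genes, 22 (84.6%) began between position -25 and position 50, and 17 began after the start, where the DNA is transcribed. In all tested genes, 343 of 1488 (23.1%) began between position -25 and position 50. NOP10, IMP4 and EBNA1BP2 each had 1 E-box near the start, at positions -11, 16 and 43, and another farther upstream, at positions -170, -203 and -237. A match of letters is a description and not a binding site.

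**Figure D1:**
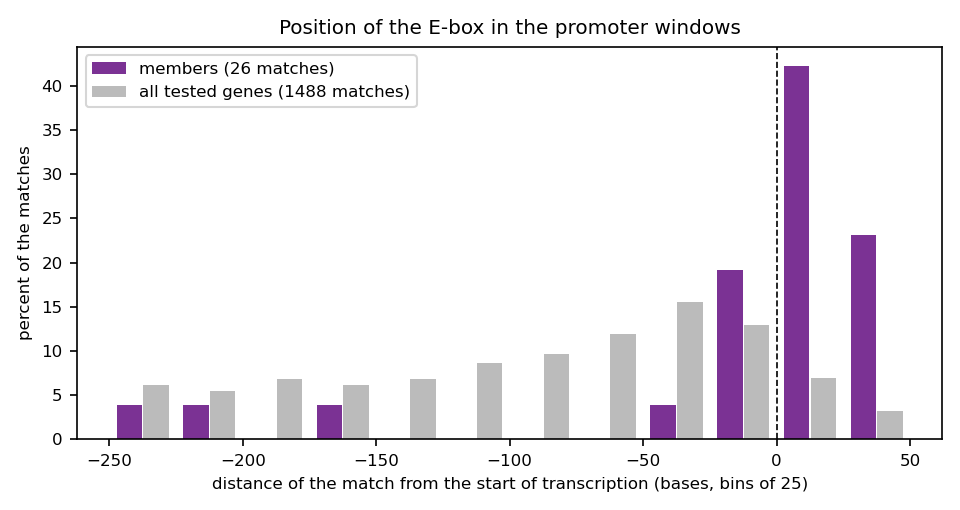
Percent of the E-box matches (vertical axis) in bins of 25 bases by distance from the start of transcription (horizontal axis, dashed line at the start), for 26 matches in the 45 promoter windows of ribosome biogenesis factors and 1488 in those of all tested genes. The factors' matches pile up at and just after the start, with 42.3% in the bin from 0 to 25 bases against 6.92% for all tested genes.

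As a sum, ribosome biogenesis factors were highest at day 7 and lowest at day 14. Their summed level was 7299, 7231 and 7037 CPM in 2D, 8989, 9950 and 10130 CPM in 3D_7d and 6422, 6179 and 5553 CPM in 3D_14d, so that no sample of one group overlapped with another. The means were 7189 ± 136, 9690 ± 613 and 6051 ± 448 CPM, in the same order (SD, n = 3 each). NCL and NPM1 held 13.5% and 11.99% of the sum in 2D, and without them the order was kept, with 5355 ± 105, 7654 ± 516 and 4786 ± 318 CPM. As bulk samples were measured, fewer cells with a transcript and less of it per cell cannot be told apart.

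Of the 53 factors, 42 (79.2%) had their highest mean at day 7, against 34.0% of all tested genes, and 34 (64.2%) their lowest at day 14, against 28.7%. For 25 (47.2%) both held, against 12.6% of all genes. In the quasi-likelihood test of edgeR, at a Benjamini-Hochberg adjusted p of at most 0.05, 33 factors were higher in 3D_7d than in 2D, 2 were lower and 18 passed in neither direction. Among all tested genes 22.2% were higher and 21.2% lower in this comparison, 43.4% together. The median log2 fold change was 0.57, ranging from -0.70 to 1.54, beside -0.0039 for all genes. At day 14 against 2D the picture was different, with 2 factors higher, 14 lower and 37 not called, a median of -0.24 (range -1.03 to 0.66) and 0.02 for all genes, of which 19.0% were higher and 17.2% lower, 36.2% together. Between the time points, 40 factors were lower at day 14 than at day 7, 1 was higher and 12 were not called, with a median of -0.77 (range -1.72 to 0.84) beside -0.0012 for all genes, of which 13.6% were lower and 14.5% higher, 28.1% together. These comparisons share samples, so that a rise from 2D to day 7 and a fall from day 7 to day 14 both use the day 7 libraries.

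All 3 samples of 3D_7d lay above all 3 of 2D for 37 factors and below for 3, where 32.2% and 32.4% of all genes did so. All samples of 3D_14d lay below all of 2D for 18 factors and above for 3 (25.5% and 24.2% of all genes), and below all of 3D_7d for 43 factors and above for 1 (20.5% and 18.9%). The spread between replicates was widest at day 14, where the median coefficient of variation was 20.9%, against 9.47% at day 7 and 5.39% in 2D, compared with 23.4%, 13.1% and 9.44% for all tested genes. Without replicate 1 of 3D_14d, 37 factors were higher and 3 lower at day 7, 1 was higher and 18 lower at day 14, and 43 were lower and 1 higher at day 14 than at day 7. Calls among all genes at day 7 rose as well, from 2985 higher and 2853 lower to 3603 and 3569 of 13335. In that fit 2845 of all genes were higher and 2463 lower at day 14, and 1866 were lower and 1919 higher between the time points. Scaling by total counts alone moved the median of all genes to -0.16 at day 7 and -0.18 at day 14, where 2156 genes were then higher and 3580 lower at day 7, in place of 2985 and 2853, and 1603 higher and 3248 lower at day 14, in place of 2557 and 2318. On that scale 23 factors were higher and 3 lower at day 7, and 1 was higher and 21 lower at day 14. Relative to all genes the median of the factors at day 7 was 0.57 with either scaling. A change of scaling moves all genes by nearly the same amount, so this value could hardly differ and is no check.

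The calls differed in how well they held when scaling, filter, test or samples were changed, in 19 other settings. Of the 33 rises at day 7, 19 were called in all of them. The others were MRTO4 and DDX18 (11 settings), GNL2 (12), POLR1B and BYSL (13), MYBBP1A, UTP4 and WDR75 (14), POLR1A, HEATR1, NAT10 and RRS1 (16), NCL (17) and NOP56 (18), which were lost mostly with 1 sample of 2D or 3D_7d left out. Both falls at day 7 were called in all settings. At day 14 against 2D, 11 of the 14 falls and 1 of the 2 rises were. Of the 40 falls between the time points 30 were, and the others were POLR1C (5 settings), NPM1 (10), RRS1 (12), DDX21 (13), NOP16 (14), UBTF (15), LTV1 and NAT10 (16), and BYSL and WDR43 (18). The rise of NOP10 was called in 15.

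**Figure D2:**
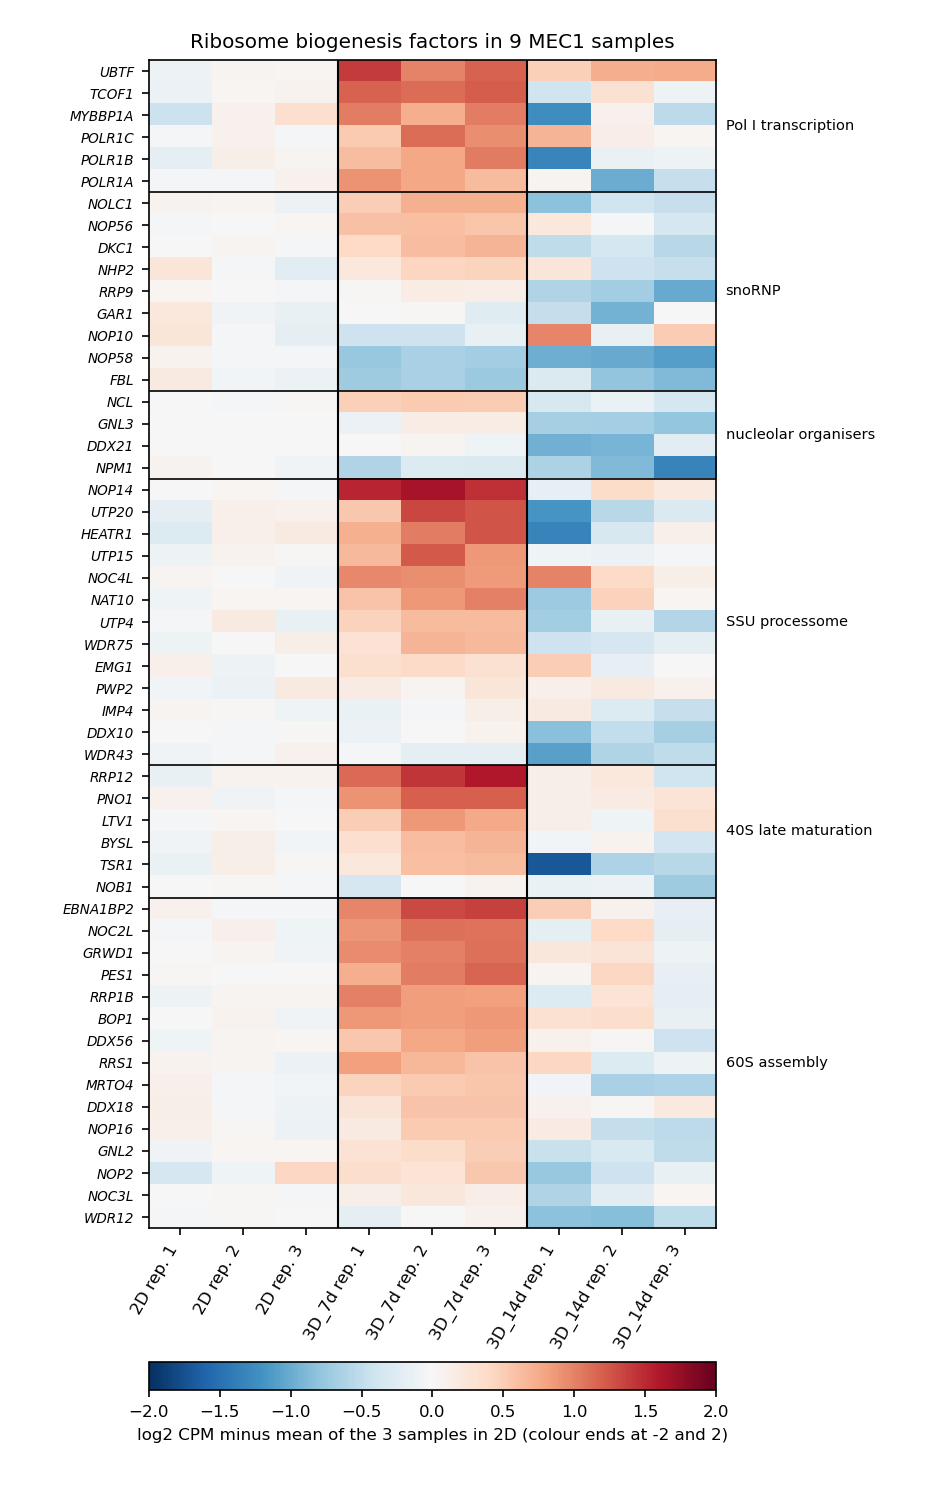
Log2 CPM of each of the 53 factors (rows, grouped by role) in each of the 9 samples (columns), minus the mean of the 3 samples in 2D, with red above and blue below that mean. The 3D_7d columns are mostly red except for snoRNP and nucleolar proteins, and the 3D_14d columns are pale or blue and differ more between replicates.

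The factors did not all move alike, and their calls are given by role in the pathway. All 6 factors of RNA polymerase I transcription were higher at day 7, their median being 0.89 on the log2 scale, as were 11 of 15 factors of 60S assembly (0.69), 4 of 6 of late 40S maturation (0.63) and 8 of 13 of the SSU processome (0.57). In none of these groups was a factor lower. The 9 snoRNP proteins were split, with 3 higher and 2 lower, and of the 4 nucleolar organisers 1 was higher. The medians of these last groups, 0.10 and 0.03, lay near 0 and were -0.05 and -0.13 on the scale of total counts. That of the nucleolar organisers was also -0.02 when immunoglobulin, ribosomal protein and mitochondrial genes were kept out of the TMM factors. At day 14 against 2D, 5 of 9 snoRNP proteins and 3 of 4 nucleolar organisers were lower, beside 3 of 13, 1 of 6, 2 of 15 and 0 of 6 in the SSU processome, late 40S, 60S and polymerase I groups. Among all tested genes 22.2% were higher and 21.2% lower at day 7, and 19.0% were higher and 17.2% lower at day 14. The falls of 3 of 13, 1 of 6 and 2 of 15 factors at day 14 were near that share. The differences between role groups were not tested.

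**Figure D3:**
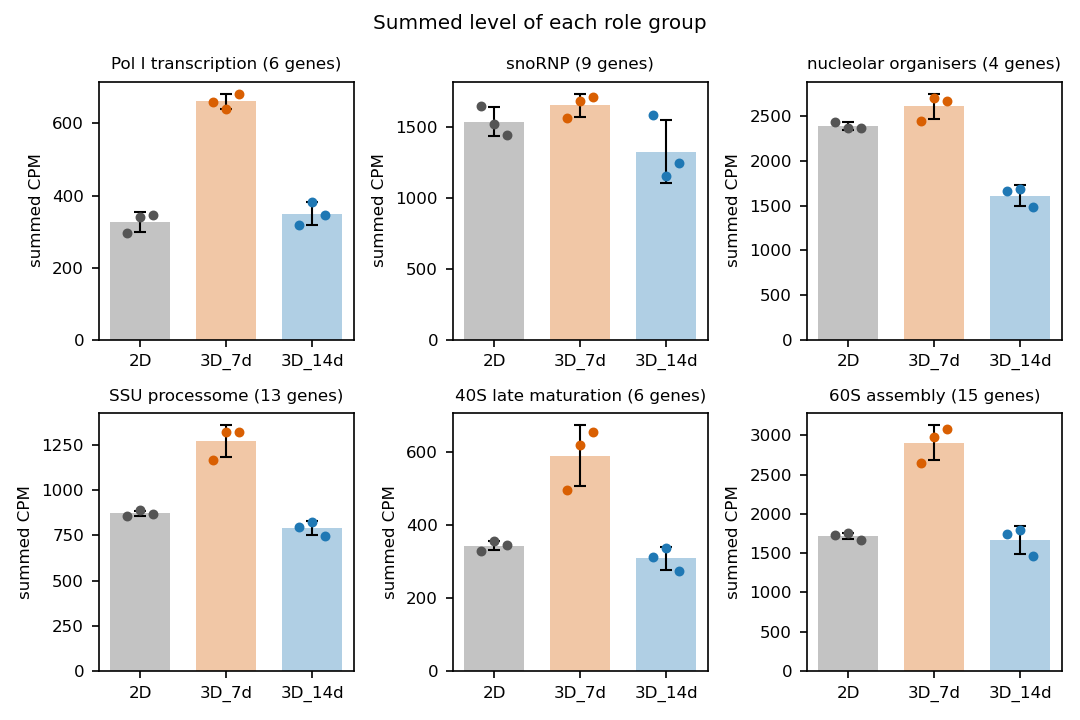
Summed CPM (vertical axes, starting at 0) of the factors of each role group in 2D, 3D_7d and 3D_14d, with bars for the mean, lines for the SD and points for the 3 samples. The Pol I, SSU processome, 40S and 60S groups are highest at day 7 and near the 2D level at day 14, whereas the nucleolar organisers differ less at day 7 and are lowest at day 14.

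The summed level of the polymerase I group went from 328 ± 27.5 CPM in 2D to 662 ± 20.7 at day 7, and to 350 ± 31.9 CPM at day 14. UBTF, which binds ribosomal DNA and keeps it open for polymerase I, lies at chr17:44205033-44221626 on the minus strand. Its levels were 64.6, 72.2 and 71.5 CPM in 2D, 184, 138 and 157 CPM at day 7 and 96.7, 115 and 116 CPM at day 14. The 3 groups did not overlap, and UBTF was 2.30-fold higher at day 7 (log2 fold change 1.20, SE 0.15, edgeR adjusted p = 6.75e-05) and 1.58-fold higher at day 14 (0.66, SE 0.15, adjusted p = 0.00422). It was the only 1 of the 6 polymerase I members called higher at day 14, and its fall between the time points was 0.54 on the log2 scale (edgeR adjusted p = 0.0158), a call that passed in 15 of 19 other settings and was lost, for example, with only the 6 samples of that comparison (adjusted p = 0.0582).

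TCOF1, or treacle, the nucleolar protein mutated in Treacher Collins syndrome, couples polymerase I to rRNA processing. It measured 76.0, 85.2 and 87.2 CPM in 2D, 187, 180 and 191 CPM at day 7 and 62.8, 102 and 77.2 CPM at day 14. Day 7 stood clear of both other groups, which overlapped. The log2 fold change was 1.17 at day 7 (SE 0.17, edgeR adjusted p = 0.000197) and -0.04 against 2D at day 14 (adjusted p = 0.876). Day 14 was 2.31-fold lower than day 7. POLR1C, a subunit that polymerases I and III share, had 58.2, 63.8 and 58.4 CPM in 2D, 86.6, 130.8 and 114 CPM at day 7 and 96.6, 66.1 and 62.0 CPM at day 14. It was higher at day 7 by 0.88 on the log2 scale (SE 0.19, edgeR adjusted p = 0.00301), and its difference between the time points, -0.56 with an adjusted p of 0.046, passed in 5 of 19 other settings. The catalytic subunits POLR1A and POLR1B and the cofactor MYBBP1A rose by log2 fold changes of 0.77, 0.81 and 0.90 at day 7 and fell by 1.17, 1.23 and 1.40 from day 7 to day 14, where replicate 1 of 3D_14d had the lowest value for POLR1B (18.7 against 42.9 and 43.8 CPM) and MYBBP1A (17.7 against 44.2 and 29.1 CPM).

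snoRNPs come in a pair of classes. Box C/D particles, which methylate rRNA, are built on FBL (the methyltransferase fibrillarin), NOP56 and NOP58, and box H/ACA particles, which make pseudouridine, on DKC1 (dyskerin), NHP2, NOP10 and GAR1. The core proteins of 1 particle did not move together. NOP58 had 259, 243 and 241 CPM in 2D, 147, 158 and 154 CPM at day 7 and 126, 123 and 116 CPM at day 14. Its groups did not overlap, and it was lower by a log2 fold change of -0.69 at day 7 (SE 0.12, edgeR adjusted p = 0.000722) and -1.03 at day 14 (SE 0.12, adjusted p = 7.84e-05), the largest fall of any of the factors at day 14. FBL had 167, 143 and 136 CPM in 2D, 90.9, 94.5 and 88.7 CPM at day 7 and 121, 85.7 and 80.2 CPM at day 14. Both 3D groups lay below 2D, with log2 fold changes of -0.70 (SE 0.17, edgeR adjusted p = 0.00454) and -0.64 (SE 0.17, adjusted p = 0.00978), and overlapped each other. NOP58 and FBL were the 2 factors called lower at day 7.

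NOP56, the partner of NOP58 and FBL in the same particle, went the other way. It had 250, 251 and 259 CPM in 2D, 380, 386 and 372 CPM at day 7 and 293, 246 and 200 CPM at day 14. Every day 7 sample was above every other sample, with a log2 fold change of 0.58 (SE 0.15, edgeR adjusted p = 0.00732), and day 14 was -0.04 from 2D (adjusted p = 0.854). RRP9, which binds the U3 snoRNP, had 118, 114 and 111 CPM in 2D, 116, 126 and 125 CPM at day 7 and 75.0, 70.7 and 56.7 CPM at day 14. It was lower at day 14 than in either other group, by -0.76 against 2D (SE 0.14, edgeR adjusted p = 0.00125) and -0.86 against day 7 (adjusted p = 0.00114).

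In the H/ACA particle, DKC1, the pseudouridine synthase, had 136, 142 and 134 CPM in 2D, 182, 212 and 220 CPM at day 7 and 96.8, 108 and 94.0 CPM at day 14. It rose by 0.57 at day 7 (SE 0.13, edgeR adjusted p = 0.00395) and was 0.47 below 2D on the log2 scale at day 14 (log2 fold change -0.47, SE 0.13, adjusted p = 0.0152). NOLC1, a chaperone that brings snoRNPs into the nucleolus, had the same order, with 208 ± 14.4, 325 ± 27.4 and 142 ± 21.8 CPM (SD, n = 3), log2 fold changes of 0.64 and -0.55 and 2.29-fold less at day 14 than at day 7 (edgeR adjusted p = 0.000279). NOP10, the smallest H/ACA protein, stood apart. It had 389, 322 and 287 CPM in 2D, 249, 249 and 296 CPM at day 7 and 652, 299 and 471 CPM at day 14. It was the 1 factor of 53 higher at day 14 than at day 7 (0.84, SE 0.23, edgeR adjusted p = 0.0179), although the nearest samples of those groups, at 296 and 299 CPM, were almost equal. Its transcript has 554 exonic bases, and after a trend with gene length was removed from each library the difference was 0.24 (adjusted p = 0.241) and that at day 7 against 2D turned from -0.33 to 0.15. That of FBL between the time points turned from 0.06 to -0.30 in the same way, without a call in either case. NHP2 and GAR1 were not called, with log2 fold changes of 0.36 and -0.08 at day 7 and of -0.19 and -0.43 at day 14. In the 19 other settings NHP2 passed 4 times at day 7, 1 time at day 14 and 7 times between the time points. GAR1 passed 0, 1 and 3 times.

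**Figure D4:**
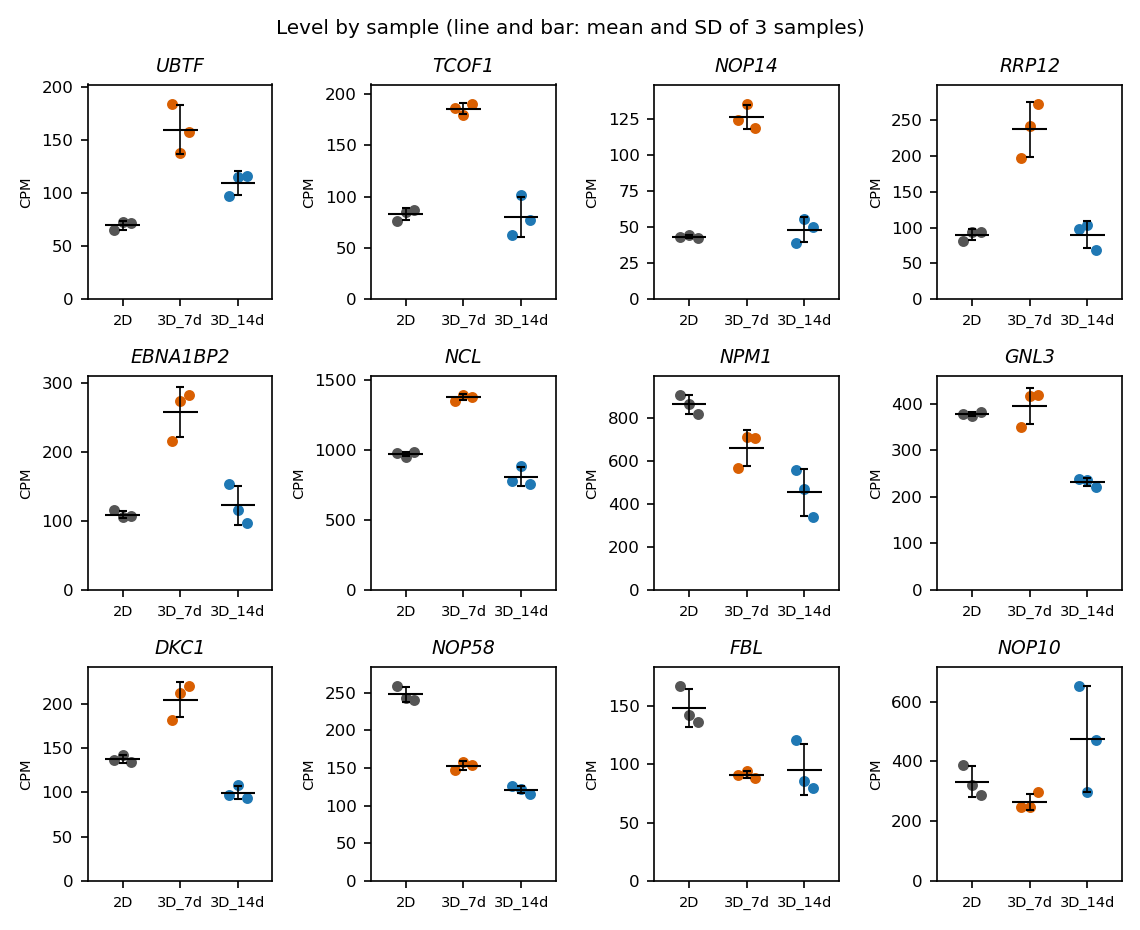
CPM (vertical axes, starting at 0) of 12 factors in each sample of 2D, 3D_7d and 3D_14d, with lines for the mean and SD of 3 samples. UBTF, TCOF1, NOP14, RRP12, EBNA1BP2, NCL and DKC1 peak at day 7, whereas NPM1, NOP58 and FBL are highest in 2D, GNL3 is lowest at day 14 and NOP10 spreads widely at day 14.

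The organising proteins of the nucleolus included the most counted of the factors. NCL (nucleolin), at chr2:231453531-231464484 on the minus strand, had 978, 954 and 985 CPM in 2D, 1353, 1394 and 1383 CPM at day 7 and 781, 889 and 761 CPM at day 14. It was 1.42-fold higher at day 7 (log2 fold change 0.50, SE 0.12, edgeR adjusted p = 0.00611). At day 14 all 3 samples were below 2D, by -0.26 on the log2 scale, which missed the threshold (adjusted p = 0.117). NPM1 (nucleophosmin), at chr5:171387116-171411137 on the plus strand, had 906, 862 and 818 CPM in 2D, 565, 710 and 705 CPM at day 7 and 557, 467 and 340 CPM at day 14. Its mean was lower at each time point, with log2 fold changes of -0.39 at day 7 (SE 0.18, edgeR adjusted p = 0.0947) and -0.92 at day 14 (SE 0.18, adjusted p = 0.00176), and NPM1 made up 11.99%, 6.81% and 7.52% of the summed CPM of the factors in the 3 groups while NCL kept 13.5%, 14.2% and 13.4%. The day 7 value of NPM1 passed in 6 of 19 other settings, among them total counts and the 6 samples of that comparison alone, and its difference between the time points (-0.54, edgeR adjusted p = 0.0388) passed in 10 of 19.

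GNL3 (nucleostemin), a nucleolar GTPase of dividing cells, had 378, 374 and 382 CPM in 2D, 350, 417 and 418 CPM at day 7 and 238, 236 and 222 CPM at day 14. Day 14 was clear of both other groups, with log2 fold changes of -0.70 against 2D (SE 0.13, edgeR adjusted p = 0.00122) and -0.77 against day 7 (SE 0.13, adjusted p = 0.0014), whereas day 7 was 0.06 from 2D (adjusted p = 0.715). DDX21, a helicase that works with polymerases I and II, followed it, with 178, 181 and 180 CPM in 2D, 178, 187 and 169 CPM at day 7 and 92.8, 94.5 and 156 CPM at day 14. Its difference between the time points, -0.64 with an edgeR adjusted p of 0.0218, passed in 13 of 19 other settings and was lost, among others, without replicate 1 of 3D_14d.

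The SSU processome held the factor with the largest rise. NOP14, at chr4:2937936-2963406 on the minus strand, is a scaffold of this complex. It had 42.9, 44.6 and 42.5 CPM in 2D, 124, 135 and 119 CPM at day 7 and 38.8, 55.6 and 49.8 CPM at day 14. The day 7 samples were all above 100 CPM and the other 6 all below 60, for a 2.91-fold rise (log2 fold change 1.54, SE 0.15, edgeR adjusted p = 1.68e-05). Day 14 overlapped with 2D (0.15, adjusted p = 0.465) and was 2.63-fold below day 7 (adjusted p = 0.000136). NOC4L, which binds NOP14, had 74.2, 71.3 and 67.9 CPM in 2D, 138, 135 and 128 CPM at day 7 and 141, 92.3 and 76.7 CPM at day 14. It was 1.88-fold higher at day 7 (0.91, SE 0.19, edgeR adjusted p = 0.00221). At day 14 it was 0.54 higher (SE 0.19, adjusted p = 0.0424), a call that passed in 7 of 19 other settings. It was lost without any 1 sample of 2D or 3D_7d and without replicate 1 of 3D_14d, where the value was 0.25 (adjusted p = 0.109). IMP4, a U3 snoRNP protein that was the most abundant of this group per length, had 176, 173 and 160 CPM in 2D, 155, 166 and 183 CPM at day 7 and 193, 140 and 123 CPM at day 14, and its groups overlapped in every comparison, with log2 fold changes of -0.01 and -0.16 against 2D.

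The large scaffolds UTP20 and HEATR1 rose at day 7 by log2 fold changes of 1.08 and 1.00, UTP15 by 0.93, and the acetyltransferase NAT10, which modifies SSU rRNA and tRNA, by 0.82. UTP4 and WDR75, WD-repeat proteins that join the precursor early, rose by 0.57 and 0.55. From day 7 to day 14 these 6 fell by 1.72, 1.41, 1.02, 0.82, 1.03 and 0.86 on the log2 scale, and UTP20 had the largest fall of all 53 factors, from 16.1, 28.1 and 26.5 CPM to 4.87, 7.57 and 9.05 CPM. WDR43 and DDX10 had no rise, with -0.13 and -0.01 at day 7, and were lower at day 14 than in 2D by -0.71 and -0.66 (edgeR adjusted p = 0.00437 and 0.00342). UTP4 was also lower than 2D at day 14 (-0.46, edgeR adjusted p = 0.0424), a call that passed in 12 of 19 other settings and was lost, among others, without replicate 1 or 3 of 3D_14d. EMG1 and PWP2 were called in no comparison, and EMG1 passed in 2 of 19 other settings at day 7 and in 1 between the time points. PWP2 was counted at only 1.39 to 1.79 CPM.

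In late 40S maturation, RRP12, an export factor of the pre-40S particle, had 81.1, 94.1 and 94.4 CPM in 2D, 197, 242 and 273 CPM at day 7 and 97.5, 104 and 68.2 CPM at day 14. The rise was 2.64-fold (log2 fold change 1.40, SE 0.18, edgeR adjusted p = 9.43e-05), and the fall back of 1.40 on the log2 scale left day 14 at the level of 2D (log2 fold change 0.0003, adjusted p = 0.999). PNO1, which holds the site where NOB1 cuts the rRNA, had 44.2, 39.9 and 41.3 CPM in 2D, 77.99, 95.1 and 95.9 CPM at day 7 and 45.3, 47.0 and 50.2 CPM at day 14. It was 2.15-fold higher at day 7 (1.10, SE 0.14, edgeR adjusted p = 8.11e-05). NOB1, the endonuclease that acts at that site, showed no such rise, with 92.2, 93.4 and 89.5 CPM in 2D, 72.5, 91.9 and 95.9 CPM at day 7 and 83.7, 84.2 and 56.1 CPM at day 14, and passed in no comparison (log2 fold changes -0.08 and -0.30 against 2D). At day 14 against 2D NOB1 passed in 1 of 19 other settings. LTV1 and BYSL rose by 0.71 and 0.54 at day 7 and fell by 0.59 and 0.66 to day 14. TSR1, a GTPase-like factor of the pre-40S particle, fell by 0.88 at day 14 against 2D (edgeR adjusted p = 0.0161), with 14.9, 31.6 and 33.0 CPM against 44.02 to 52.5 CPM.

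Among the 60S factors, EBNA1BP2, an early pre-60S protein, had 116, 106 and 107 CPM in 2D, 216, 274 and 283 CPM at day 7 and 154, 116 and 97.7 CPM at day 14. It was 2.36-fold higher at day 7 (log2 fold change 1.24, SE 0.18, edgeR adjusted p = 0.000189), and per length it went from rank 15 of the 53 factors in 2D to rank 6. The helicase DDX56 had 203, 225 and 221 CPM in 2D, 313, 368 and 384 CPM at day 7 and 229, 220 and 162 CPM at day 14, with a rise of 0.72 (SE 0.16, edgeR adjusted p = 0.00293) and a fall of 0.80 on the log2 scale (adjusted p = 0.00339). PES1 and BOP1, which with WDR12 form the PeBoW complex needed to process the 60S rRNAs, rose together, by 0.99 and 0.86 (edgeR adjusted p = 0.000597 and 0.000676), but WDR12 did not. WDR12 had 63.7, 65.9 and 65.0 CPM in 2D, 56.7, 64.2 and 68.7 CPM at day 7 and 36.9, 35.9 and 45.5 CPM at day 14. It was -0.04 from 2D on the log2 scale at day 7 (edgeR adjusted p = 0.854) and -0.72 from it at day 14 (adjusted p = 0.00239), whereas PES1 and BOP1 were 0.12 and 0.18 from 2D at day 14 and were not called.

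The other members of this group mostly had the day 7 peak. NOC2L, with 196, 212 and 187 CPM in 2D against 365, 422 and 421 CPM at day 7, rose by 1.02, and its partner NOC3L by 0.16 without a call (edgeR adjusted p = 0.441). GRWD1, a histone-binding protein that also escorts a ribosomal protein, rose by 1.02, RRP1B by 0.89, RRS1 by 0.69, MRTO4 by 0.51, DDX18 by 0.47 and the GTPase GNL2 by 0.38. From day 7 to day 14 all of these except NOC3L and DDX18 were called lower, by 0.64 (RRS1) to 0.99 (NOC2L) on the log2 scale. NOC3L and DDX18 were lower in all samples, by log2 fold changes of -0.40 and -0.37, but missed the threshold (edgeR adjusted p = 0.0771 and 0.0631). NOP16, a product of a MYC target gene, had a log2 fold change of 0.41 at day 7 (edgeR adjusted p = 0.0884) and fell by 0.66 to day 14. GNL2 was below 2D at day 14 (-0.42, edgeR adjusted p = 0.0234). NOP2, an rRNA methyltransferase, was counted at 2.04 to 4.98 CPM and passed in no comparison, although between the time points it passed in 3 of 19 other settings.

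**Figure D5:**
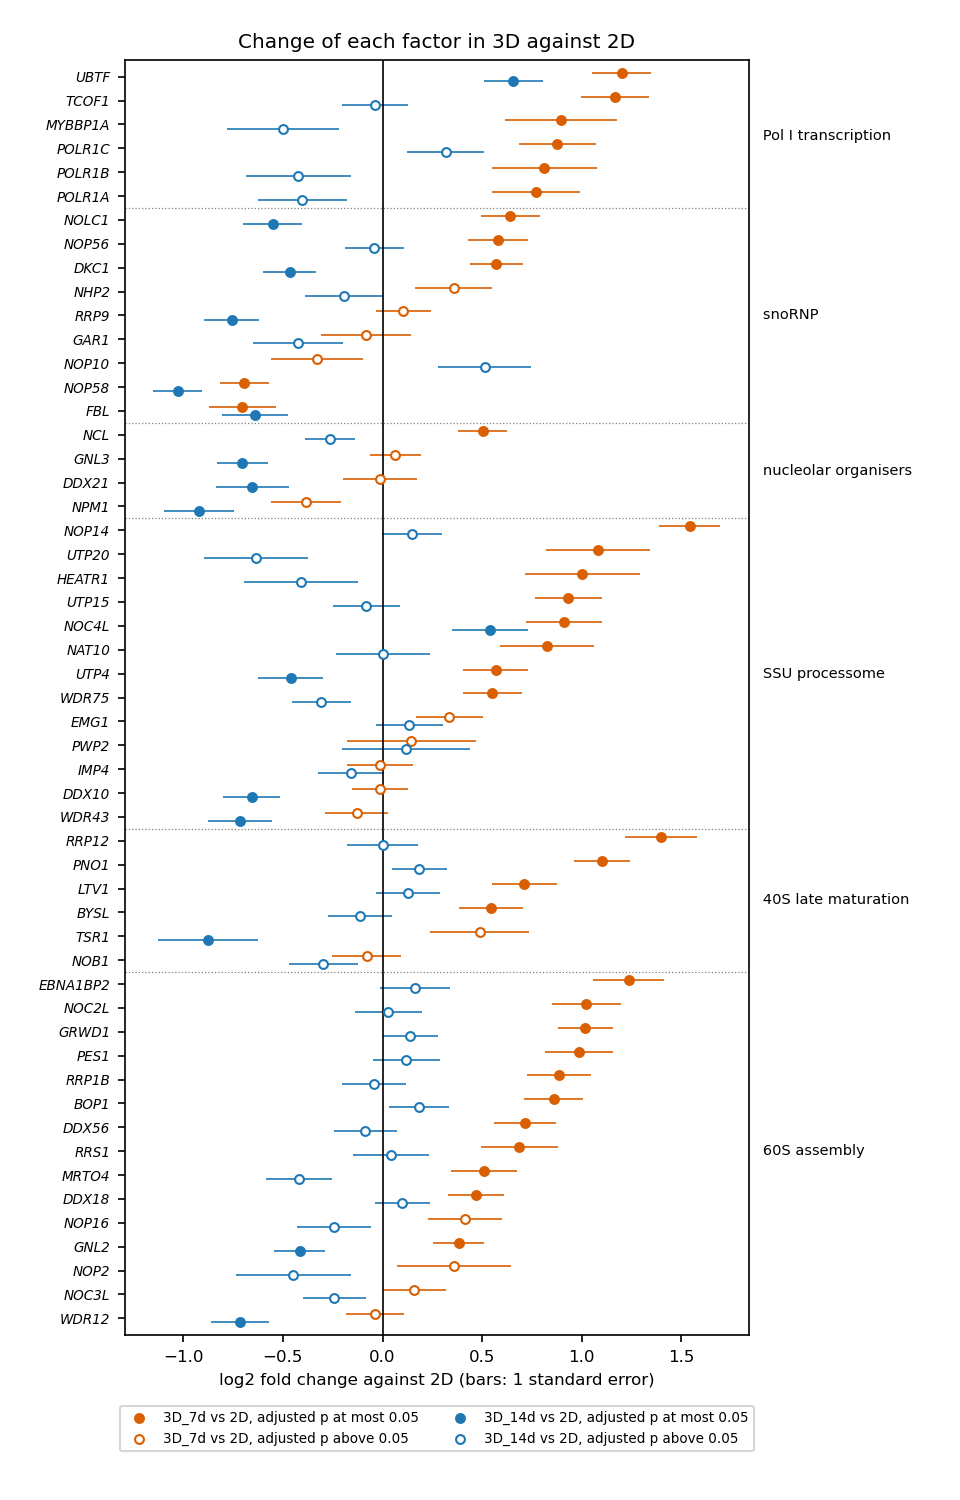
Log2 fold change against 2D (horizontal axis, bars of 1 standard error) of each factor at day 7 (orange) and day 14 (blue), ordered by role and by the day 7 value, with filled points for an adjusted p of at most 0.05. The orange points lie to the right of the blue ones for 51 of 53 factors, with FBL and NOP10 as the exceptions.

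Levels of different genes are compared per exonic length. NOP10 was highest in every group, with 600 RPKM (CPM per kilobase of exons) in 2D, 478 at day 7 and 856 at day 14. NPM1 (331, 253 and 175 RPKM), NCL (248, 351 and 206), GNL3 (185, 193 and 113) and NOP56 (132, 198 and 129) filled ranks 2 to 5, with NCL passing NPM1 at day 7 and day 14. In 2D, NOP56 and FBL (both 132 RPKM) did not differ beyond their spread. FBL went from rank 6 to 15 and 8, and NOP58 from rank 7 to 19 and 14. The polymerase I factors were far lower, from 1.98 RPKM for POLR1A to 21.2 RPKM for POLR1C in 2D, and NOP2 (0.72 to 1.26 RPKM) and PWP2 (0.48 to 0.53 RPKM) were lowest. Both NOP2 and PWP2 share sequence with another gene, as given below, so their levels may be counted too low or too high.

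Rises were found among factors with and without an E-box. Of the 23 factors with one, 12 were higher and 1 lower at day 7, the median of all 23 being 0.38 on the log2 scale, and of the 22 with a window but no E-box 14 were higher and none lower, with a median of 0.58. NOP14, with the largest rise, and FBL, 1 of the 2 factors called lower at day 7, both have an E-box that begins within the first 16 transcribed bases, as printed above. From day 7 to day 14, 16 of 23 and 18 of 22 were called lower and 1 and 0 higher, with medians of -0.80 and -0.72. Of the 8 factors without a window, 7 were higher and 1 lower at day 7, and 6 were lower between the time points. Among all tested genes, 22.2% were higher and 21.2% lower at day 7. Between the time points 13.6% were lower and 14.5% higher.

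The 125 other ribosome biogenesis factors, listed from knowledge of the pathway, showed the same direction less fully. At day 7, 52 were higher and 16 lower (41.6% and 12.8%), beside 22.2% and 21.2% of all tested genes. The median was 0.31 on the log2 scale. At day 14 against 2D, 13 of the 125 were higher and 27 lower with a median of -0.10. Of all tested genes 19.0% were higher and 17.2% lower there, so the share of these factors called lower was only a little above that. From day 7 to day 14, 4 of the 125 were higher and 55 lower, beside 14.5% and 13.6% of all tested genes. Their median was -0.42. Their highest mean was at day 7 for 77 (61.6%), and their lowest at day 14 for 68 (54.4%). By role, of 37 other SSU processome factors 20 were higher and 4 lower at day 7 and of 52 other 60S factors 20 and 6, but of 11 other polymerase I factors 1 was higher and 4 were lower, with a median of -0.35. The difference between these 11 and the 6 polymerase I members, all higher, was not tested. The 1 that was higher was RRN3, which brings polymerase I to the promoter, with 34.0, 35.8 and 39.1 CPM in 2D, 73.0, 104 and 101 CPM at day 7 and 36.1, 73.9 and 70.7 CPM at day 14. It was called at day 7 (1.35, SE 0.24, edgeR adjusted p = 0.000769) and at day 14 (0.73, SE 0.24, adjusted p = 0.0295), where its samples overlapped with 2D.

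TAF1D, a subunit of the SL1 complex that selects the ribosomal promoter, had the largest of these falls. It had 84.3, 80.6 and 78.6 CPM in 2D, 19.0, 16.1 and 15.9 CPM at day 7 and 23.8, 15.98 and 24.2 CPM at day 14, with log2 fold changes of -2.26 (SE 0.18, edgeR adjusted p = 5.55e-06) and -1.93 (SE 0.18, adjusted p = 1.67e-05). FTSJ3, an rRNA methyltransferase of the pre-60S particle, had 39.7, 47.2 and 49.2 CPM in 2D and 112, 133 and 119 CPM at day 7 (1.42, SE 0.14, edgeR adjusted p = 1.57e-05), and 59.6 to 63.8 CPM at day 14. RRP36, of the SSU processome, stayed high, with 49.4 to 58.2 CPM in 2D, 118 to 128 CPM at day 7 and 81.2 to 142 CPM at day 14 (1.20 and 1.02, edgeR adjusted p = 0.000292 and 0.00112). LAS1L, the endonuclease that cuts the second internal spacer, had 82.0 to 91.2 CPM in 2D, 178 to 189 CPM at day 7 and 67.7 to 101 CPM at day 14, a rise of 1.10 and a fall of 1.15 on the log2 scale (edgeR adjusted p = 0.000162 and 0.000425). The helicase DDX51 did the opposite, with 25.1 to 33.1 CPM in 2D, 13.1 to 20.02 CPM at day 7 and 34.0 to 38.5 CPM at day 14 (-0.84 and 1.08, edgeR adjusted p = 0.00309 and 0.00169).

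Some of the counts may include reads of other genes or lack reads shared with them. The sources used here state neither the strand setting nor the treatment of reads with several alignments. Of the 53 factors 27 share exonic bases with another annotated gene. NOP2 shares 70.9% of its exonic bases with a gene on the same strand, AC006064.6, NHP2 43.8% with RMND5B and EMG1 30.9% with LPCAT3, both on the opposite strand, and LTV1, NOB1, HEATR1 and TSR1 share 21.5 to 34.7%. For PWP2, 35.7% of its 100-base transcript stretches, the read length, also occur in 1 other gene. With these 8 left out, 31 of the remaining 45 factors were higher and 2 lower at day 7, 2 were higher and 13 lower at day 14, and 37 were lower and 1 higher at day 14 than at day 7. NPM1 has 46 pseudogene symbols in the table, which together held 1.05% of its counts. The spans of 7 of the factors hold 23 annotated snoRNAs. NOP56 holds 5 of them, NOP58 and GNL3 4 each, NCL and WDR43 3 each, and DKC1 and TSR1 2 each. At day 7 NOP56, NCL and DKC1 were higher, NOP58 was lower, and GNL3, WDR43 and TSR1 were not called.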

How the data were processed

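Total RNA of 9 MEC1 samples in 3 groups of 3 was sequenced by the authors from a low-input SMART-Seq library in single reads of 100 bases. The authors trimmed the reads with Trimmomatic (version 0.39), aligned them to GRCh38 with STAR (version 2.5.3a) and counted them per gene with featureCounts (version 1.6.4), and the deposited values are these raw counts per gene symbol, with gene length and position. Strand and multiple-alignment settings are not given in the sources used here.

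Samples were grouped by culture and day. In R (version 4.3.3), edgeR (version 4.0.16) was used with TMM factors, a filter at CPM above 1 in 3 or more samples, 1 mean per group over all 9 samples and the quasi-likelihood test for 3 contrasts. Benjamini-Hochberg adjustment ran over the 13463 genes of each contrast, at a threshold of 0.05. CPM and RPKM were computed with TMM-scaled library sizes, and log2 CPM with a prior count of 2. In the heatmap and the text, n is 3 per group. An exact permutation test of 3 against 3 samples cannot go below p = 0.1 and was not used. With 54662799 or more counts a sample, replicates still differed beyond counting noise, and precision is set by their spread. The 53 members, the lists and the rules were chosen with earlier results of these data known, and nothing was tested over a list.

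Full statistics are given for the 3 members with the smallest p-values per contrast and direction among those called without overlap between the groups, the 2 members of each role with the highest mean RPKM, and the 1 other factor with the smallest p-value per contrast and direction. Other members are given by log2 fold change. Further values of some of these, such as WDR12, DDX21, UTP20, TSR1, NOC2L, POLR1B, MYBBP1A, PWP2 and NOP2, and those of RRN3, were added after they had been seen. Alternatives were DESeq2's (version 1.42.0) size factors and Wald test, other scalings and filters, only 6 samples, a replicate block, a loess correction for gene length (span 0.4), a fold threshold and each sample left out. One alternative, leaving out members that share sequence, was chosen after seeing the data. The pipeline was tested on simulated data. Shared exonic bases come from the deposited positions and shared 100-base stretches from a later GENCODE release.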

Additional observations from a re-analysis of the deposited data

Results flagged for a closer look

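For 19 of the 26 genes named by rule, the change against 2D differed between day 7 and day 14 by the test of that difference itself, which in this design is the comparison of 3D_14d with 3D_7d (edgeR, adjusted p at most 0.05), beside 28.1% of all tested genes. NOP14, NOP10, DDX51, NOLC1, DKC1 and LAS1L were named for small p-values in this same comparison, so that their values are a description. Of the 20 genes named otherwise, many of them for their values in the same libraries, 13 passed, and nothing is read from either count. The log2 fold change at day 14 was lower than at day 7 by these amounts on the log2 scale: -1.40 for RRP12, -1.39 for NOP14, -1.21 for TCOF1, -1.19 for NOLC1, -1.15 for LAS1L, -1.07 for EBNA1BP2, -1.04 for DKC1, -0.98 for FTSJ3, -0.92 for PNO1, -0.86 for RRP9, -0.80 for DDX56, -0.77 for GNL3, -0.76 for NCL and -0.62 for NOP56. It was also lower for POLR1C (-0.56), UBTF (-0.54) and NPM1 (-0.54), whose calls were lost in several other settings. It was higher for NOP10 (0.84), a call lost with the length trend removed, and for DDX51 (1.08). NOP58, FBL, NOC4L, IMP4, NOB1, TAF1D and RRP36 did not pass this test.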

How the results depend on the processing

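Counts are of members unless stated. A minimum absolute log2 fold change of 1 left 10 higher and 0 lower at day 7, 0 and 1 at day 14, and 0 and 14 at day 14 against day 7, and of the other factors 13 and 4, 1 and 5, and 1 and 11. Of all 13463 tested genes 2755, 2172 and 1456 passed it in these comparisons, both directions together. At day 7 changes of this size were thus no more frequent among the members than among all genes. With total counts alone the members' medians were 0.41 and -0.43 at days 7 and 14, with 1 higher at day 14, and the other factors' 0.15 and -0.31, with 34 higher at day 7 and 4 higher and 43 lower at day 14. TMM without immunoglobulin, ribosomal protein and mitochondrial genes gave a median of 0.53 at day 7. It gave 1 member higher at day 14, as did filterByExpr, no filter and the fit of 6 samples, which had 4 lower at day 7. For the other factors at day 14, no filter gave 7 higher and a median of -0.16, and the fit of 6 samples 8 higher. With the length trend removed, alone or with the block, 0 members were higher at day 14 than at day 7. Leaving out 1 sample at a time gave 23 to 37 higher and 2 to 3 lower at day 7 (median 0.47 to 0.60), 1 to 3 higher and 11 to 18 lower at day 14 (-0.28 to -0.12, the last without replicate 3 of 3D_14d), and 0 to 1 higher and 31 to 43 lower between the time points (-0.83 to -0.71). Calls among all tested genes moved in the same fits. At day 7, 2051 to 3603 genes were higher and 2227 to 3569 lower. At day 14 the counts were 1564 to 2845 and 1640 to 2463, and between the time points 1193 to 2187 and 1092 to 2141. For the other factors the ranges were 33 to 61 and 12 to 22 (0.25 to 0.32), 3 to 16 and 25 to 31 (-0.18 to -0.071), and 3 to 6 and 35 to 61 (-0.46 to -0.37). Their lowest counts higher at day 7 were 33 without replicate 1 of 2D and 34 without replicate 2 of 2D or of 3D_7d, and at day 14 they were 5, 3 and 3 without replicates 1, 2 and 3 of 2D. Without replicate 2 of 3D_7d, 35 were lower between the time points.
The replicate numbers are not shown to pair the samples, since same-numbered samples had correlations of deviations from -0.10 to 0.19, and not every sample correlated best with its own number. Between 2D and 3D_14d each sample did so, at 0.19, 0.11 and 0.09 for replicates 1, 2 and 3, but not in the pairs with 3D_7d. The replicate block gave 33 higher and 2 lower, 2 and 15, and 1 and 41. No called value of a member changed sign in any setting, 54 values of named genes lost the threshold and 25 gained it, and the causes of these changes were not tested. Of the members, PWP2 and NOP2 were counted lowest, at under 5 CPM, and both share sequence with another gene.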
